A study of Mus musculus with 16 samples.

Results

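The 7 genes described here encode 4 transglutaminases (Tgm1, Tgm2, Tgm3 and Tgm5) and 3 enzymes that cut or break down filaggrin (Casp14, Asprv1 and Blmh). They were taken by symbol from the 55359 gene IDs in the files, and all 7 were found and passed the filter on low counts that left 17531 genes for testing. Tgm1 lies on chromosome 14, Tgm2, Tgm3 and Tgm5 lie on chromosome 2, Casp14 on chromosome 10, Asprv1 on chromosome 6 and Blmh on chromosome 11. The measurements are RNA sequencing read counts from whole back skin of 8-week-old male mice, and the labels give telogen, in which hair follicles rest, as the stage of every sample. The 4 groups, with 4 libraries each, were Tnfrsf1a/b KO mice after a treatment labelled 3xUVB (KO UVB), Tnfrsf1a/b KO mice without UVB (KO control), WT mice after 3xUVB (WT UVB) and WT mice without UVB (WT control). Tnfrsf1a and Tnfrsf1b encode both receptors for the cytokine TNF. The allele design, the strain and the dose and times of UVB are not stated in the labels. The title names the activation and migration of melanocyte stem cells, which these counts of whole skin do not address directly.

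Transglutaminases join proteins through bonds between glutamine and lysine side chains. In the uppermost living epidermis, TGM1, TGM3 and TGM5 knit precursor proteins such as involucrin, loricrin and small proline-rich proteins into the cornified envelope, the insoluble shell of the dead surface cells. Filaggrin is made there as a long precursor that proteases cut into filaggrin units, and these are later broken down to free amino acids that hold water in the cornified layer. ASPRV1 (SASPase) cuts the linkers of the precursor, caspase-14 cuts filaggrin, and bleomycin hydrolase (BLMH) breaks the fragments down to amino acids.

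Library depth was 15644375 to 23200649 reads in genes. Tnfrsf1a averaged 95.8 ± 6.78 CPM (counts scaled by library size) in KO UVB and 85.9 ± 5.42 CPM in KO control libraries, against 151 ± 8.87 CPM in WT UVB and 143 ± 6.67 CPM in WT control libraries (SD, n = 4 each), and Tnfrsf1b averaged 20.1 ± 5.54 and 20.8 ± 4.17 CPM in KO UVB and KO control skin, against 40.9 ± 7.99 and 57.8 ± 13.4 CPM in WT UVB and WT control skin. Transcripts of both receptor genes were thus lower in KO skin and still present, and counts per gene cannot show which part of each gene is lacking. Keratins of the growing hair follicle went against the telogen label in part of the libraries. The summed level of 8 hair shaft markers was 0.456 to 1.29 CPM in KO UVB, 12.1 to 42.0 CPM in KO control, 0.784 to 13.2 CPM in WT UVB and 116 to 342 CPM in WT control libraries. Of 9 inner root sheath markers the sum was 7.79 to 20.5 CPM in KO UVB, 74.2 to 298 CPM in KO control, 13.6 to 173 CPM in WT UVB and 1143 to 2882 CPM in WT control libraries, and WT UVB library 2 held the highest value of its group in both lists. Marker sums of other cells also differed between UVB and control libraries in KO skin. Fibroblast markers summed to 31540 to 40793 CPM in KO UVB against 54993 to 59129 CPM in KO control libraries, but 2 of the 7, Col1a1 and Col1a2, were called lower and 5 were not called, with a median log2 fold change of -0.16. In WT skin their sum was 41609 to 45604 CPM with UVB against 28756 to 62606 CPM in control libraries, and all 7 were not called. Skeletal muscle markers summed to 9606 to 15787 CPM in KO UVB against 19866 to 31178 CPM in KO control libraries, with 5 of 7 called lower. In WT skin their sum was 12879 to 19207 CPM with UVB against 16402 to 21443 CPM in control libraries, with 1 of 7 called lower. Neutrophil markers summed to 38.7 to 370 CPM in KO UVB against 11.02 to 32.1 CPM in KO control libraries, with 6 of 6 tested called higher and KO UVB library 3 far above the others of its group. In WT skin they summed to 19.6 to 49.7 CPM with UVB against 12.1 to 16.99 CPM in control libraries, with 2 of 6 called higher. Over all genes, UVB gave 17.2% called higher and 15.1% lower in KO skin, and 10.2% higher and 8.6% lower in WT skin. In bulk skin, more cells of a type and more RNA per cell cannot be told apart. Whether each library is 1 animal is not stated, and p-values therefore reflect the variation among these samples, which may be technical.

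The promoters of the 3 filaggrin-processing genes are shown first. All 3 genes rose after UVB in both genotypes, as did Tgm1 and Tgm3, whose windows are not printed here. The 300-base windows around the start sites come from RefSeq on GRCm38.p6 and are written 5′ to 3′ on the strand of the gene, Casp14 at chr10:78718244-78718543 (minus strand), Asprv1 at chr6:86627924-86628223 (plus strand) and Blmh at chr11:76945406-76945705 (plus strand). Capitals mark exact matches, on either strand, to TGANTCA (the AP-1 motif) and CACCC (a core motif of Klf factors). All CACCC matches lie on the opposite strand and read GGGTG here, and 2 of them adjoin in Casp14.
Casp14: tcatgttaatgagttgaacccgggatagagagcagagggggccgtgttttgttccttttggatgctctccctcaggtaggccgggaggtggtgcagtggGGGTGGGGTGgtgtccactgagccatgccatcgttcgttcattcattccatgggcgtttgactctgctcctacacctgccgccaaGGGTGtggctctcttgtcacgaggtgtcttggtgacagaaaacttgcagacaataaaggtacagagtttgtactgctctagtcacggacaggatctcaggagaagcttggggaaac
Asprv1: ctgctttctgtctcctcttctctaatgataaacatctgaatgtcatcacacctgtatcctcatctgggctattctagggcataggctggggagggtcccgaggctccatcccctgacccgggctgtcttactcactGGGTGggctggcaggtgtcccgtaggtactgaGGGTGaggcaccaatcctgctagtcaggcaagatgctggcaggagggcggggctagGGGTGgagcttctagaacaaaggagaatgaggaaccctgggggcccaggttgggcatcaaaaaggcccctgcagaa
Blmh: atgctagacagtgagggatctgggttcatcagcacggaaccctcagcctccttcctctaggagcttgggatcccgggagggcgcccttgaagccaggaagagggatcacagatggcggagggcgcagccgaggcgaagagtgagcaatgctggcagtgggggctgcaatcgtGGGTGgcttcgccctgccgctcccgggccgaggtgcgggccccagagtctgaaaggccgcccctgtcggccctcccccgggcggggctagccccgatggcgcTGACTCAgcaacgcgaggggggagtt
CACCC was matched 3 times in the Casp14 window, 3 times in the Asprv1 window and 1 time in the Blmh window, and 57.5% of all 32817 promoter windows held it. TGANTCA was matched in the Blmh window alone of these 3, 25 bases after the start site, and 7.81% of all windows held it. Of the 6 members with a window, 5 held CACCC and 1 held TGANTCA. The TATA box letters TATAAA, which 13.6% of all windows held, were in 1, Tgm3. The bases after the start site of the Tgm3 window were not found as an unbroken stretch in any annotated transcript. This check, which needs an unbroken match, did not settle the start site of Tgm3. These matches describe letters in a window and say nothing of binding.

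UVB against control skin asks how the enzymes stand after irradiation in each genotype. After UVB, 5 of the 7 genes rose in KO skin (Tgm1, Tgm3, Casp14, Asprv1 and Blmh) and 6 of the 7 in WT skin (the same 5 and Tgm5), and none fell. A gene was called at an adjusted p under 0.05 in edgeR's quasi-likelihood test, adjusted by Benjamini-Hochberg over all genes tested. Over all genes, 17.2% were called higher and 15.1% lower in KO skin, and 10.2% were called higher and 8.6% lower in WT skin. The median log2 fold change of the 7 genes was 1.86 in KO and 1.81 in WT skin, against -0.02 and -0.03 over all genes tested. The 7 genes were chosen with earlier results of these data known, so setting them against all genes is a description with no test. In KO skin, 5 of the 7 genes were higher in every UVB library than in every control library, as were 13.6% of all genes, and in WT skin 6 of the 7 were, as were 15.1% of all genes. KO against WT gave no called gene among the 7, with UVB or without it.

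**Figure D1:**
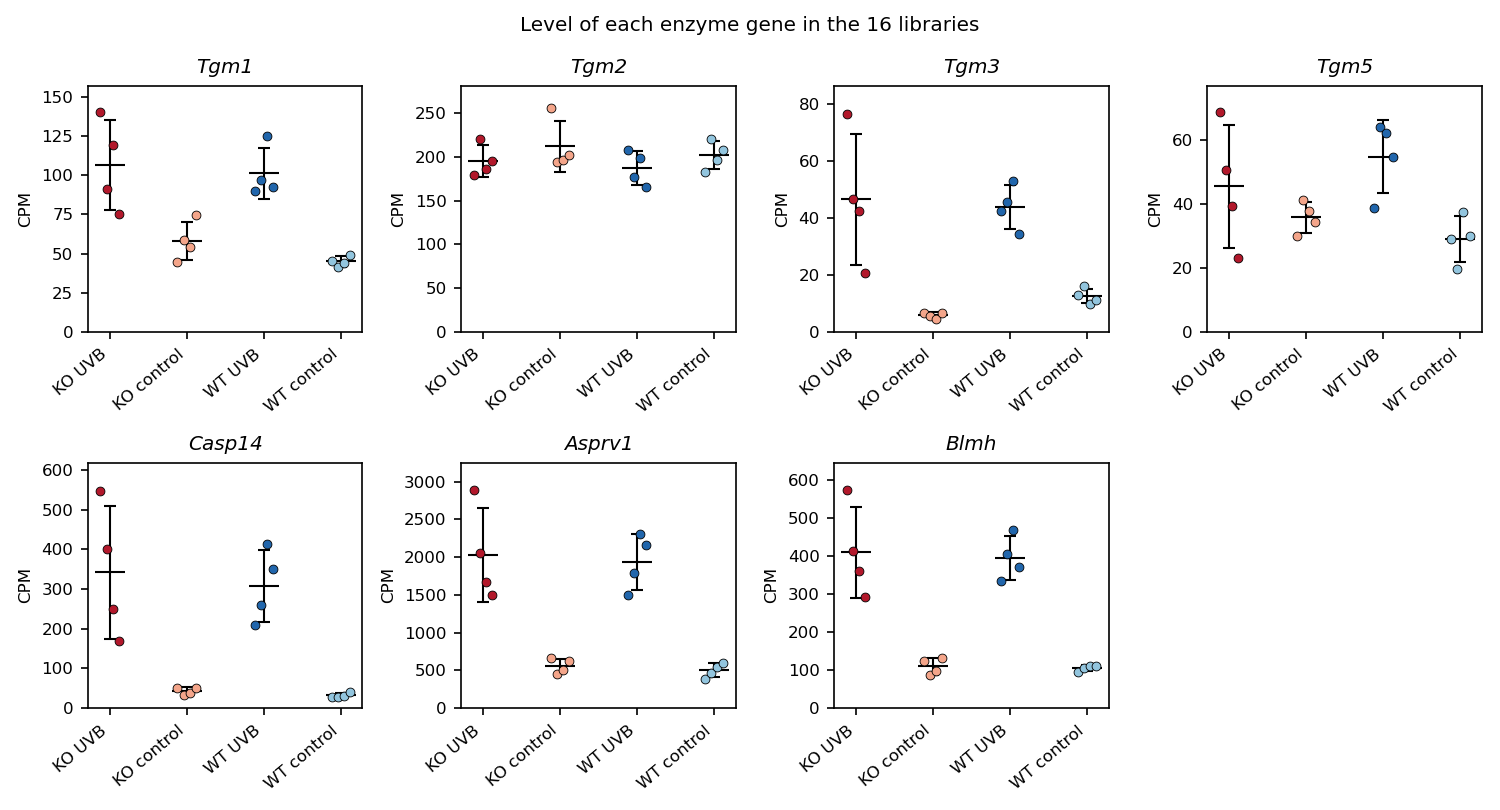
Normalised level (CPM, linear axis) of each of the 7 genes in the 16 libraries, in the order KO UVB, KO control, WT UVB and WT control; points are libraries, and the bar and whiskers are mean and SD (n = 4). The UVB libraries lie above the control libraries of the same genotype for Tgm1, Tgm3, Casp14, Asprv1 and Blmh, and all groups overlap for Tgm2.

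Among the filaggrin-processing enzymes, Casp14 had the widest change. It stood at 547, 401, 249 and 170.3 CPM in KO UVB libraries 1 to 4, against 51.1, 32.9, 37.9 and 51.8 CPM in KO control libraries. In WT skin it stood at 209, 260.0, 413 and 350.2 CPM in UVB libraries, against 29.1, 28.3, 30.6 and 41.6 CPM in control libraries. No UVB library came near a control library of either genotype, and KO UVB libraries spread more widely than WT UVB libraries, with a coefficient of variation of 48.8% against 29.5%. The log2 fold change was 2.98 ± 0.32 (SE) in KO skin (adjusted p = 2.92e-05, edgeR), a 7.88-fold rise, and 3.25 ± 0.33 in WT skin (adjusted p = 1.73e-05, edgeR), a 9.50-fold rise. The difference between these UVB effects was -0.27 ± 0.43 (KO minus WT, 95% interval -1.18 to 0.64, adjusted p = 0.826).

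Asprv1 had the highest level of the 7 genes, in CPM and per length. Its levels were 2888, 2062, 1675 and 1493 CPM in KO UVB libraries, against 659, 457, 505 and 619.8 CPM in KO control libraries. WT UVB libraries held 1494, 1785, 2308 and 2155 CPM, against 388, 467, 545 and 599 CPM in WT control libraries. UVB and control libraries did not overlap in either genotype, while KO and WT overlapped in both conditions. Asprv1 rose 3.62-fold in KO skin (log2 1.86 ± 0.22, adjusted p = 4.05e-05) and 3.87-fold in WT skin (log2 1.95 ± 0.22, adjusted p = 3.30e-05).

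Blmh followed Asprv1 closely. It was at 574, 414, 359.8 and 294 CPM in KO UVB libraries, against 123, 87.1, 96.8 and 133 CPM in KO control libraries. WT UVB libraries held 334, 405, 469.6 and 372 CPM, against 95.6, 107, 109.9 and 109.8 CPM in WT control libraries, whose spread was the narrowest of the 4 groups. The rise was 3.74-fold in both genotypes, with a log2 fold change of 1.90 ± 0.19 in KO skin (adjusted p = 1.21e-05) and of 1.90 ± 0.19 in WT skin (adjusted p = 1.17e-05). The difference between them was 0.00 at 2 decimals, with a 95% interval of -0.54 to 0.54.

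The epidermal transglutaminases changed less evenly. Tgm1, the membrane-bound enzyme whose loss causes lamellar ichthyosis in humans, was at 141, 91.4, 119 and 75.5 CPM in KO UVB libraries, against 44.9, 58.8, 54.0 and 74.4 CPM in KO control libraries. In WT skin, UVB libraries held 90.0, 97.2, 125 and 92.6 CPM, against 45.5, 41.3, 43.8 and 49.2 CPM in control libraries. The groups did not overlap in either genotype, but in KO skin the lowest UVB library, library 4, lay just above the highest control library. Tgm1 rose 1.84-fold in KO skin (log2 0.88 ± 0.18, adjusted p = 0.00217) and 2.25-fold in WT skin (log2 1.17 ± 0.18, adjusted p = 0.000451).

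Tgm3, which acts in the cornified envelope and also in the hair follicle, had the lowest level of the 7 genes in control skin, in CPM and per length. It had 76.2, 46.4, 42.3 and 20.5 CPM in KO UVB libraries, against 6.71, 5.64, 4.37 and 6.49 CPM in KO control libraries. WT UVB libraries had 42.4, 45.3, 53.0 and 34.1 CPM, against 12.96, 15.9, 9.83 and 11.3 CPM in WT control libraries. The UVB libraries of both genotypes overlapped, whereas every KO control library lay below every WT control library. Tgm3 rose 7.98-fold in KO skin (log2 3.00 ± 0.31, adjusted p = 2.26e-05) and 3.51-fold in WT skin (log2 1.81 ± 0.29, adjusted p = 0.000625).

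The KO UVB effect on Tgm3 exceeded the WT UVB effect by 1.18 ± 0.41 on the log2 scale (95% interval 0.30 to 2.06), which had an unadjusted p of 0.0116 and an adjusted p of 0.262 and so did not pass the test across all genes. Among all genes tested, 0.0228% passed this test of the difference. DESeq2 and limma voom each called 0 of the 7 genes in it, and Tgm3 was the only member with an unadjusted edgeR p under 0.05.

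Tgm5, an envelope enzyme whose loss causes acral peeling skin syndrome in humans, passed the test in WT skin alone. It was at 68.8, 50.7, 39.5 and 23.0 CPM in KO UVB libraries, against 30.0, 41.2, 37.9 and 34.3 CPM in KO control libraries, which they enclosed. WT UVB libraries held 38.6, 64.1, 62.1 and 54.7 CPM, against 28.9, 19.7, 37.5 and 30.0 CPM in WT control libraries, with no overlap. The log2 fold change was 0.34 ± 0.27 in KO skin (adjusted p = 0.345) and 0.91 ± 0.27 in WT skin (adjusted p = 0.0277). The difference between these effects was -0.57 ± 0.38 (KO minus WT, adjusted p = 0.545), so a different response of the genotypes was not shown. The call in WT skin was lost without WT control library 1 (adjusted p = 0.0625), 2 (0.0823) or 4 (0.0557), without WT UVB library 2 (0.0732), 3 (0.0730) or 4 (0.0557), or with no filter on low counts (0.0735), within 0.00645 to 0.0823 over all alternatives.

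Tgm2, the tissue transglutaminase that many cell types including endothelium make, did not pass the test in either genotype. It was at 179.5, 221, 187 and 195 CPM in KO UVB libraries, against 256, 194, 196 and 203 CPM in KO control libraries. WT UVB libraries held 208, 177, 199 and 165 CPM, against 183, 221, 196 and 208 CPM in WT control libraries. All 4 groups overlapped, and KO control library 1 stood above the other libraries of its group. The 95% interval of the UVB effect was -0.35 to 0.11 in KO skin (log2 fold change -0.12, adjusted p = 0.422) and -0.34 to 0.12 in WT skin (log2 fold change -0.11, adjusted p = 0.514). The summed level of 9 endothelial markers, 493 to 650.1 CPM in KO UVB against 487 to 605 CPM in KO control and 455 to 570.0 CPM in WT UVB against 527 to 633 CPM in WT control libraries, also overlapped between all groups.

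**Figure D2:**
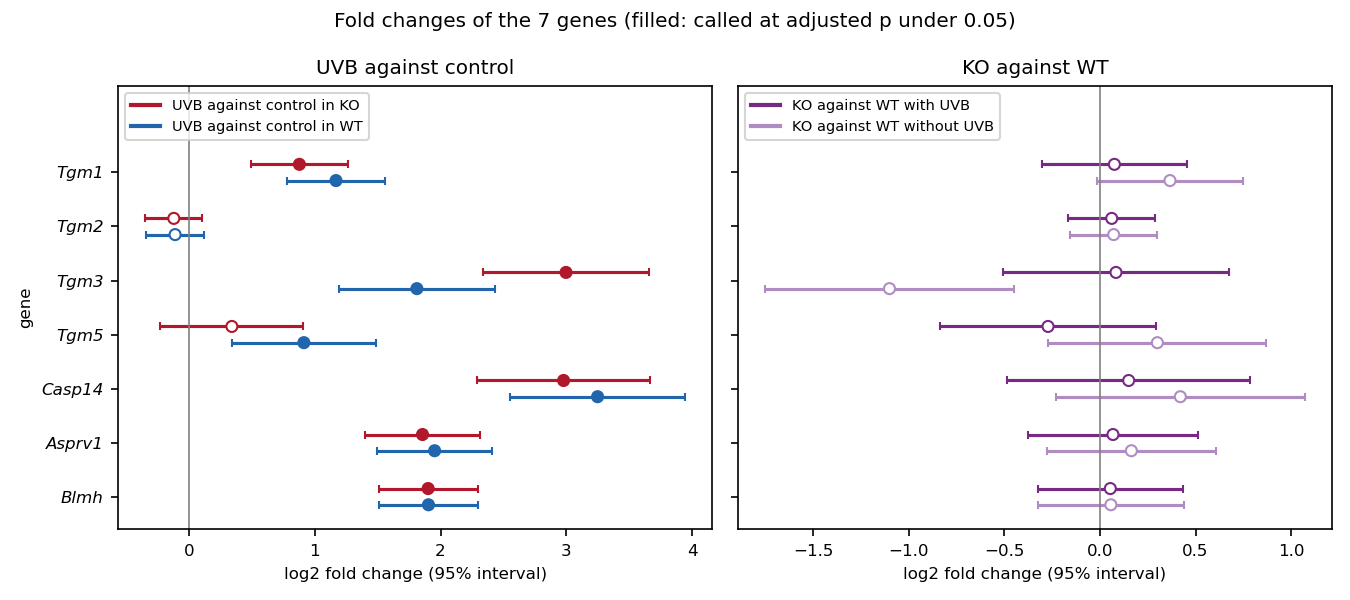
Log2 fold change of each gene with its 95% interval from the edgeR fit; the left panel gives UVB against control in KO and in WT skin, and the right panel KO against WT with and without UVB, with filled points for called genes. All called effects are rises after UVB (5 in KO skin, 6 in WT skin), and every KO against WT point is open.

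Within the UVB groups, the same libraries were high or low for most of the genes. In KO UVB skin, library 1 was the highest and library 4 the lowest for 6 of the 7 genes, all but Tgm2. In WT UVB skin, library 3 was the highest for 5 of the 7 genes and library 1 the lowest for 5 of the 7. The summed level of 7 suprabasal keratinocyte markers had its highest and lowest values in the same libraries: it was 44963, 26412, 19831 and 15459 CPM in KO UVB libraries 1 to 4 and 22237, 26083, 29419 and 22931 CPM in WT UVB libraries. In control skin that sum was 8107 to 13188 CPM in KO and 6732 to 8604 CPM in WT libraries, below every UVB library of the same genotype. Krt1 and Krt10 carried most of the sum with UVB, averaging 9744 and 12718 CPM in KO UVB libraries. Krt77 weighed more in control skin, averaging 3219 CPM in KO and 2515 CPM in WT control libraries, against 964 and 658 CPM for Krt1. Of the 7 markers, 5 rose and 1, Krt77, fell in KO skin (log2 -1.20, adjusted p = 0.0222), with Dsg1a at -0.05 and not called, and 5 rose and none fell in WT skin.

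Set against that sum, the genes differed in their pattern. Casp14 stood at 11.02 to 15.2 CPM per 1000 CPM of suprabasal markers in KO UVB libraries, against 3.78 to 6.30 in KO control libraries, and at 9.40 to 15.3 in WT UVB libraries, against 3.56 to 4.91 in WT control libraries. Its UVB and control libraries thus stayed apart on this scale. That depends on the makeup of the list, as Krt1 alone had a wider change than Casp14. Krt1 averaged 9744 CPM in KO UVB against 964 CPM in KO control libraries, and 8163 against 658 CPM in WT skin. Casp14 averaged 342 against 43.4 CPM in KO skin and 308 against 32.4 CPM in WT skin. The difference between these genes was not tested. Asprv1 overlapped on the same scale, at 64.2 to 96.6 in KO UVB against 47.0 to 81.3 in KO control libraries and at 67.2 to 94.0 in WT UVB against 57.0 to 70.8 in WT control libraries. Blmh also overlapped, at 12.8 to 19.0 in KO UVB against 9.64 to 15.2 in KO control libraries and at 15.01 to 16.2 in WT UVB against 12.8 to 15.9 in WT control libraries. Tgm5 was lower with UVB, at 1.48 to 1.99 in KO UVB against 2.60 to 5.06 in KO control libraries and at 1.74 to 2.46 in WT UVB against 2.93 to 4.36 in WT control libraries, without overlap. Tgm3 stood at 1.33 to 2.13 in KO UVB against 0.435 to 0.827 in KO control libraries, without overlap, and at 1.49 to 1.91 in WT UVB against 1.14 to 2.36 in WT control libraries, which enclosed them. Tgm1 overlapped in KO skin, at 3.13 to 6.02 in UVB against 5.38 to 7.23 in control libraries, and was lower with UVB in WT skin, at 3.73 to 4.25 in UVB against 5.09 to 6.68 in control libraries. Tgm2 was lower with UVB without overlap, at 3.99 to 12.6 in KO UVB against 15.4 to 31.6 in KO control libraries and at 6.75 to 9.37 in WT UVB against 22.8 to 32.8 in WT control libraries. The CPM of Tgm2 itself overlapped between UVB and control libraries, and neither Tgm1 nor Tgm5 was called lower in CPM. Any gene that rises less than the marker sum gets a lower ratio. The share of all genes that separate on this scale was not counted.

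The pattern depended on the markers used. Per 1000 CPM of 7 basal keratinocyte markers, of which Krt5 and Krt14 rose and Krt15 fell with UVB in both genotypes, Asprv1 stood at 167 to 221 in KO UVB against 69.0 to 128 in KO control libraries and at 157 to 239 in WT UVB against 68.3 to 99.8 in WT control libraries, without overlap. Blmh likewise did not overlap, at 33.6 to 43.4 in KO UVB against 13.1 to 23.9 in KO control libraries and at 35.6 to 41.2 in WT UVB against 13.96 to 22.9 in WT control libraries. Casp14 and Tgm3 were also higher with UVB without overlap in both genotypes, Tgm3 at 3.78 to 4.76 in WT UVB against 1.25 to 3.39 in WT control libraries. Tgm5 overlapped in both genotypes, at 3.40 to 4.31 in KO UVB against 3.93 to 6.21 in KO control libraries and at 4.33 to 6.06 in WT UVB against 4.21 to 5.09 in WT control libraries. Tgm1 overlapped in both genotypes, and Tgm2 overlapped in KO skin and was lower with UVB without overlap in WT skin. The basal sum was itself higher in WT skin with UVB, at 8911 to 11473 CPM against 4679 to 7871 CPM in WT control libraries. Ratios to either marker sum are a description; the part of keratinocyte content in the UVB effects was not tested.

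**Figure D3:**
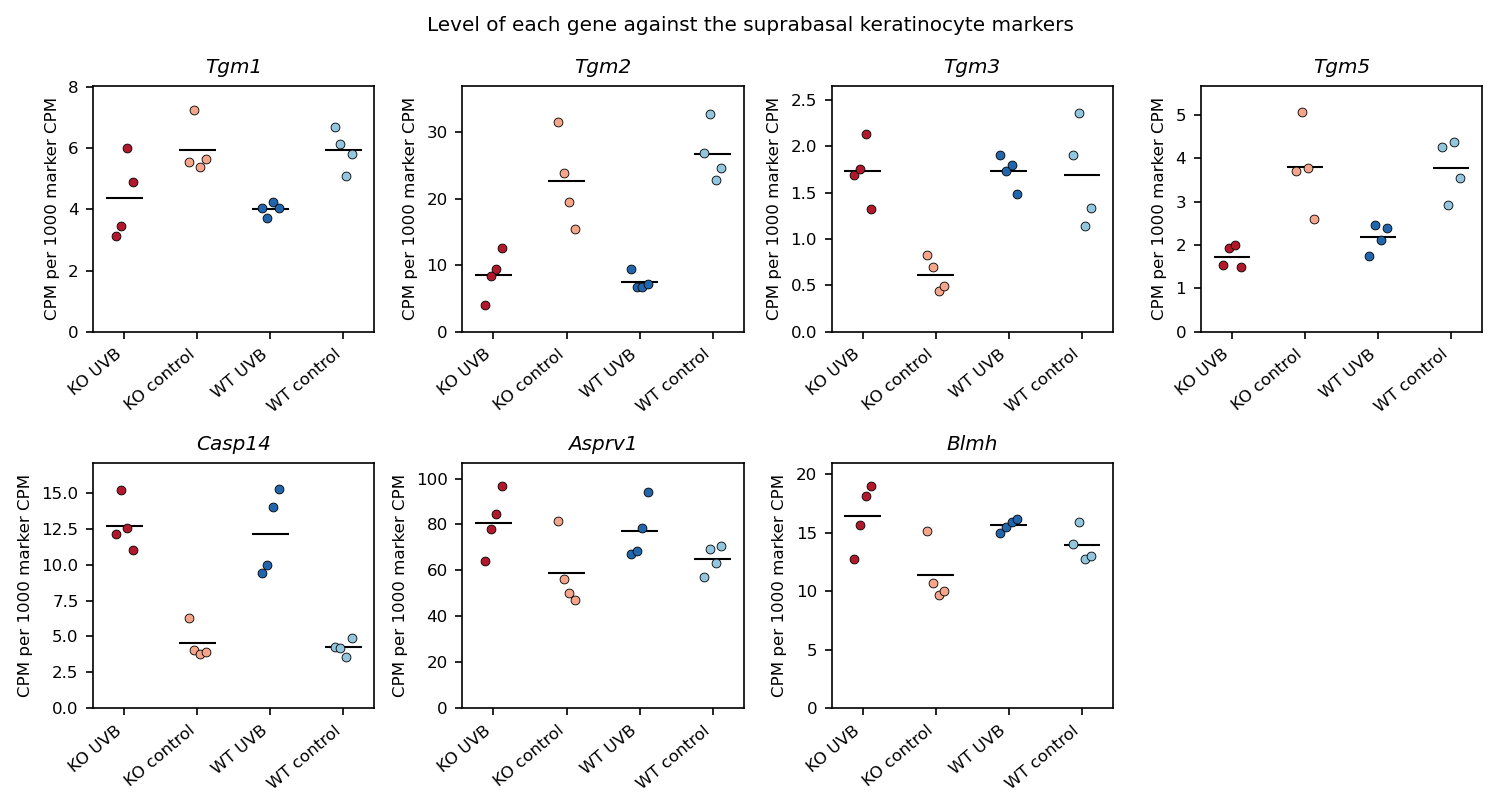
Level of each gene in each library per 1000 CPM of the summed suprabasal keratinocyte markers (linear axes); points are libraries and the bar is the mean of 4. On this scale UVB libraries stay above control libraries of the same genotype for Casp14 in both genotypes (11.02 to 15.2 against 3.78 to 6.30 in KO skin) and for Tgm3 in KO skin. They lie below control libraries in both genotypes for Tgm2 and Tgm5 and in WT skin for Tgm1. The marker sum itself was higher in every UVB library, and none of these genes was called lower in CPM. Per basal marker sum, Tgm5 and Tgm1 overlapped in both genotypes and Tgm2 in KO skin.

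The fold change of each enzyme gene was below that of Flg, which encodes filaggrin and rose 12.4-fold in KO (adjusted p = 8.76e-06, edgeR) and 15.5-fold in WT skin (adjusted p = 6.63e-06, edgeR); the difference between genes was not tested. Flg was at 2370, 1570, 1074 and 621 CPM in KO UVB libraries and averaged 113 ± 26.8 CPM in KO control skin, and it averaged 1354 ± 179 CPM in WT UVB against 87.4 ± 19.9 CPM in WT control skin. For each 100 CPM of Flg there were 24.8 ± 2.09 CPM of Casp14 in KO UVB against 39.9 ± 12.3 in KO control libraries, and 22.6 ± 5.07 in WT UVB against 37.9 ± 7.65 in WT control libraries (SD, n = 4 each). For Asprv1 the ratio was 162 ± 54.1 in KO UVB against 512 ± 130.0 in KO control libraries, and 143 ± 20.5 in WT UVB against 598 ± 191 in WT control libraries. For Blmh it was 32.8 ± 10.4 in KO UVB against 101 ± 31.4 in KO control libraries, and 29.2 ± 0.544 in WT UVB against 126 ± 34.96 in WT control libraries. The UVB and control ranges of the ratio did not overlap for Asprv1 and Blmh in either genotype, nor for Casp14 in WT skin, and they overlapped for Casp14 in KO skin, at 23.1 to 27.4 against 26.1 to 55.1.

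Levels of different genes are set side by side per kilobase of exon (CPM per kb, exon lengths from an annotation of another build). In KO UVB skin the order was Asprv1 at 1312, Casp14 at 143, Blmh at 69.7, Tgm2 at 42.5, Tgm1 at 33.7, Tgm5 at 14.4 and Tgm3 at 11.2 CPM per kb. In KO control skin it was Asprv1 at 362, Tgm2 at 46.1, Blmh at 18.6, Tgm1 at 18.3, Casp14 at 18.1, Tgm5 at 11.4 and Tgm3 at 1.40 CPM per kb, where the means of Blmh, Tgm1 and Casp14 lay within their SDs of 3.64, 3.91 and 3.96. WT skin had the same order with UVB, with Asprv1 at 1251 and Tgm3 at 10.6 CPM per kb, and in WT control skin Tgm1 at 14.2 and Casp14 at 13.5 CPM per kb again lay within their SDs. Of the summed CPM per kb of the 4 transglutaminases, Tgm2 made up 42.9% (31.5 to 54.0%) in KO UVB against 59.6% (55.0 to 68.7%) in KO control libraries, and 40.6% (37.4 to 47.0%) in WT UVB against 62.3% (59.8 to 67.4%) in WT control libraries. Tgm3 made up 10.5% in KO UVB against 1.81% in KO control libraries, and 10.4% in WT UVB against 4.31% in WT control libraries.

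**Figure D4:**
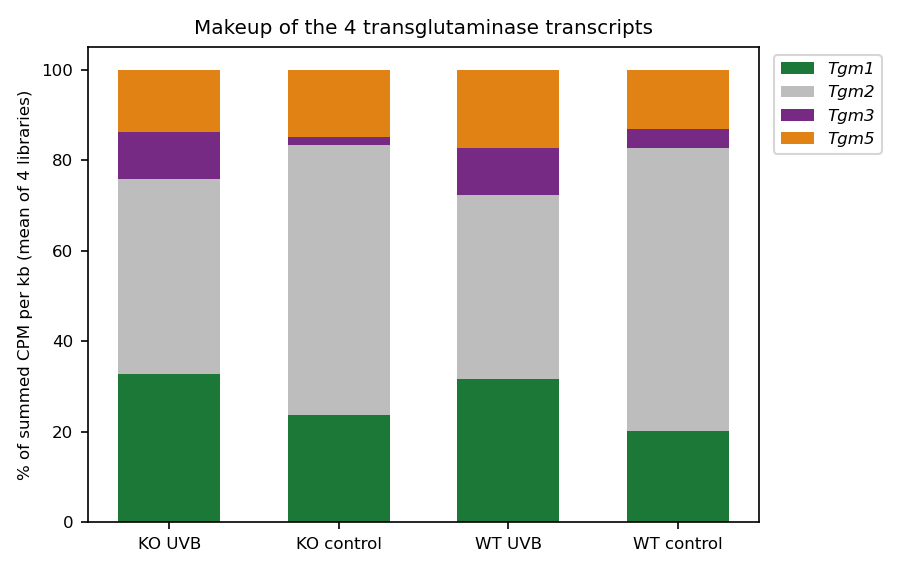
Share of Tgm1, Tgm2, Tgm3 and Tgm5 in their summed CPM per kb, as the mean of 4 libraries in each group (stacked bars from 0 to 100%). Tgm2 takes 42.9% in KO UVB against 59.6% in KO control libraries, and 40.6% in WT UVB against 62.3% in WT control libraries.

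KO against WT skin asks whether the receptor genes bear on these levels. With UVB, 0 of the 7 genes were called by edgeR, DESeq2 or limma voom, 0 had an unadjusted p under 0.05, and KO and WT libraries overlapped in all 7; over all genes 0.856% were called and 8.16% did not overlap. The log2 difference with UVB was 0.15 for Casp14 (95% interval -0.48 to 0.79), 0.07 for Asprv1 (-0.37 to 0.51), 0.05 for Blmh (-0.33 to 0.43), 0.08 for Tgm1 (-0.30 to 0.45), 0.08 for Tgm3 (-0.51 to 0.68), -0.27 for Tgm5 (-0.83 to 0.29) and 0.06 for Tgm2 (-0.17 to 0.29). Without KO UVB library 1, the difference was negative for Tgm1, Tgm3, Casp14, Asprv1 and Blmh as well, and no call was made.

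Without UVB, edgeR and limma voom called 0 of the 7 genes and DESeq2 called 1, Tgm3, which was also the only member with an unadjusted edgeR p under 0.05; over all genes 1.69% were called by edgeR. Tgm3 averaged 5.80 ± 1.06 CPM in KO control and 12.5 ± 2.59 CPM in WT control skin (SD, n = 4 each). The log2 fold change was -1.10 ± 0.31 (95% interval -1.75 to -0.45, adjusted p = 0.104 by edgeR), and all KO control libraries lay below all WT control libraries, as they did for 4.63% of all genes. DESeq2 gave an adjusted p of 0.0131, the edgeR fit of these groups alone gave 0.0128, and the edgeR fits without KO UVB library 1 or 4 gave 0.0345 and 0.0199, within 0.0128 to 0.298 over all alternatives. For the other 6 genes the log2 difference ran from 0.06 for Blmh (95% interval -0.32 to 0.44) to 0.42 for Casp14 (-0.23 to 1.07).

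The sums of hair follicle markers, like Tgm3, lay lower in KO than in WT control libraries. Within KO control libraries the orders differed, as library 3 had the highest hair shaft sum (42.0 CPM) and the lowest Tgm3 level (4.37 CPM). Within WT control libraries the orders of the hair shaft sum and of Tgm3 were the same. All 8 hair shaft markers measured were called lower in KO against WT control skin, and their sum was 12.1 to 42.0 CPM in KO against 116 to 342 CPM in WT control libraries; of the inner root sheath markers 5 of 9 were called lower. After UVB, Tgm3 was at its highest while hair shaft markers were at their lowest, with up to 4 of 8 markers at 0 reads in a KO UVB library and up to 3 of 8 in a WT UVB library. The part of hair follicle content in the Tgm3 difference between control groups was not tested.

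**Figure D5:**
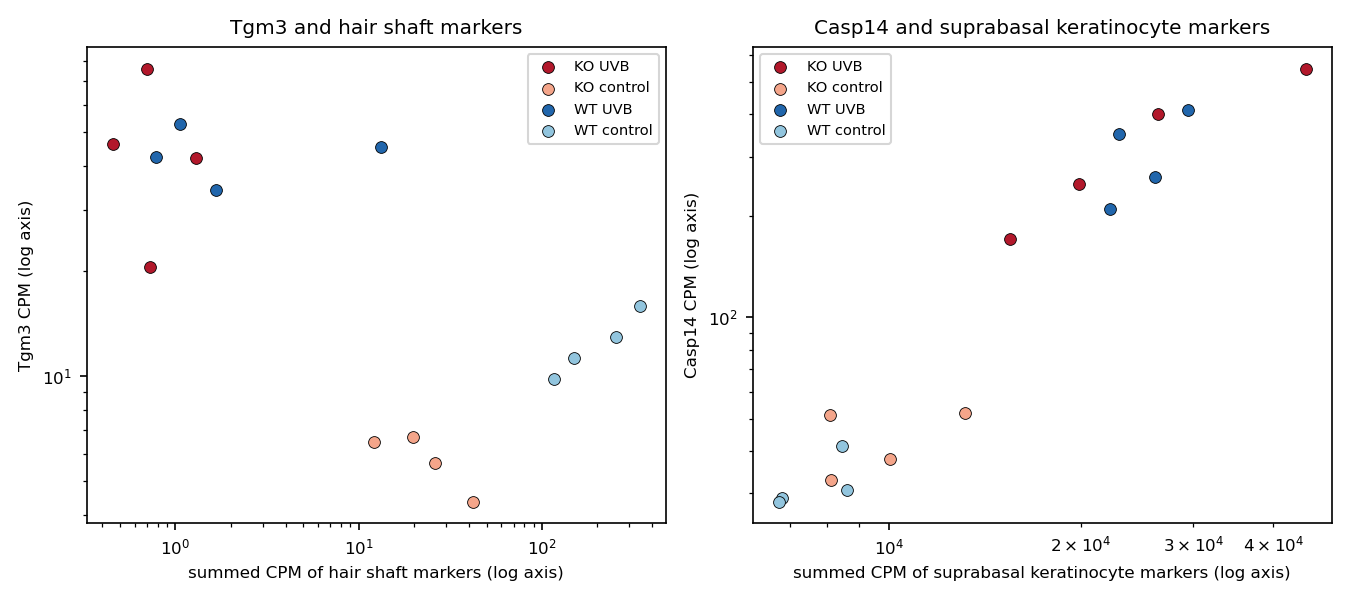
Left, Tgm3 CPM against the summed CPM of 8 hair shaft markers; right, Casp14 CPM against the summed CPM of 7 suprabasal keratinocyte markers; each point is a library and all axes are logarithmic. KO control libraries hold fewer hair shaft transcripts (12.1 to 42.0 CPM) and less Tgm3 than WT control libraries (116 to 342 CPM), and Casp14 is highest in the libraries with the most suprabasal marker transcripts.

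Of the other 5 genes of the transglutaminase family, 3 were tested. Tgm6 fell with UVB in KO skin (adjusted p = 0.00488, edgeR), where the 4 UVB libraries together held 1 read against 47 reads in control libraries, too few for a fold change. It fell in WT skin (log2 -4.77 ± 0.63, adjusted p = 0.00013), where library 2 held 14 of the 17 reads of the UVB libraries. It was lower in KO against WT control skin, at 0.558 ± 0.283 against 5.82 ± 2.37 CPM (log2 -3.33 ± 0.55, adjusted p = 0.00495). Tgm7 fell to 0.624 ± 0.775 CPM in KO UVB, against 7.98 ± 2.68 CPM in KO control skin (log2 -3.63 ± 0.52, adjusted p = 0.000189); KO UVB library 4 held 39 of the 53 reads of its group, and the mean without it was 0.240 CPM. In WT skin it fell to 1.60 ± 0.199 CPM in WT UVB, against 6.95 ± 1.67 CPM in WT control skin (log2 -2.11 ± 0.46, adjusted p = 0.00563). F13a1, the A chain of blood clotting factor XIII that macrophages also make, averaged 582 ± 133 CPM in KO UVB against 465 ± 107 CPM in KO control skin (adjusted p = 0.265) and 347 ± 50.9 CPM in WT UVB against 535 ± 147 CPM in WT control skin (adjusted p = 0.0556). Tgm4 and Epb42 did not pass the filter on low counts.

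Among 27 tested genes for envelope proteins and other transglutaminase substrates, 19 rose and 3 fell in KO skin after UVB, and 16 rose and 2 fell in WT skin, with a median log2 fold change of 1.25 and 1.07. The shares over all genes were 17.2% higher and 15.1% lower in KO skin, and 10.2% higher and 8.6% lower in WT skin. The medians over all genes were -0.02 and -0.03. Beside Flg, the named substrates were Lce1f, a late envelope protein (3.04 ± 0.24 in KO, adjusted p = 3.05e-06; 3.36 ± 0.24 in WT, adjusted p = 3.69e-06), Lce1a1 (1.51 ± 0.17 in KO, adjusted p = 2.97e-05; 1.81 ± 0.17 in WT, adjusted p = 8.39e-06) and the suprabasal keratin Krt1 (3.34 ± 0.39 in KO, adjusted p = 4.72e-05; 3.63 ± 0.40 in WT, adjusted p = 3.16e-05). The only substrate called between genotypes after UVB was Krt2, a keratin of the upper epidermis, at 4.26 ± 3.02 CPM in KO UVB against 46.3 ± 14.3 CPM in WT UVB skin (log2 -3.46 ± 0.46, adjusted p = 0.00121). Krt2 rose with UVB by 2.13 ± 0.54 in KO skin (adjusted p = 0.00778), where UVB and control libraries overlapped, and by 5.38 ± 0.53 in WT skin (adjusted p = 1.45e-05). The difference between these effects did not pass the test (adjusted p = 0.125). Without UVB the substrates called lower in KO against WT were Tchh, trichohyalin of the inner root sheath (-3.12 ± 0.67, adjusted p = 0.0251), and its relative Tchhl1 (-3.10 ± 0.52, adjusted p = 0.00521). Both also fell with UVB in both genotypes, though the UVB and control libraries of KO skin overlapped for Tchhl1. Flg2, of the filaggrin family, was the other substrate that fell in KO skin (-0.84 ± 0.19, adjusted p = 0.00349, edgeR), with overlapping libraries. In WT skin Flg2 averaged 865 ± 169 CPM with UVB against 840 ± 101 CPM in control libraries.

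Of 14 tested genes for other enzymes of filaggrin processing, 7 rose and 1 fell in KO skin after UVB, and 6 rose and 1 fell in WT skin, with a median log2 fold change of 0.48 and 0.31. Of all genes, 17.2% were called higher and 15.1% lower in KO skin, and 10.2% higher and 8.6% lower in WT skin. Ggct, which encodes gamma-glutamylcyclotransferase, rose by 1.98 ± 0.21 in KO (adjusted p = 2.65e-05) and by 1.84 ± 0.21 in WT skin (adjusted p = 4.50e-05). The desquamation proteases Klk5 (1.33 ± 0.16 in KO, adjusted p = 5.69e-05; 1.54 ± 0.16 in WT, adjusted p = 2.08e-05) and Klk7 (1.47 ± 0.17 in KO, adjusted p = 3.32e-05; 1.17 ± 0.16 in WT, adjusted p = 0.000205) rose, as did Prss8, the protease prostasin, (0.72 ± 0.12 in KO, adjusted p = 0.000422; 0.79 ± 0.12 in WT, adjusted p = 0.000301). Padi3, a citrullinating enzyme of hair and epidermis, fell in KO (-2.53 ± 0.58, adjusted p = 0.00437) and in WT skin (-4.94 ± 0.55, adjusted p = 3.99e-05). Without UVB it was lower in KO against WT skin (-2.97 ± 0.48, adjusted p = 0.00429), as was its relative Padi1 (-2.92 ± 0.47, adjusted p = 0.00434). Padi1 rose with UVB in KO skin, at 5.25 ± 3.13 against 1.14 ± 0.709 CPM (log2 2.16 ± 0.47, adjusted p = 0.00314). In WT skin it was at 4.76 ± 1.24 CPM with UVB against 8.86 ± 2.09 CPM in control libraries, without overlap, and did not pass the test (log2 -0.89 ± 0.42, adjusted p = 0.150). The difference between these effects was 3.06 ± 0.63 (KO minus WT) and did not pass the test either (adjusted p = 0.0894).

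Beside the 17.2% of all genes called higher after UVB in KO and 10.2% in WT skin, the inhibitors of epidermal proteases were looked at. Of 7 genes for these inhibitors, 4 rose in KO and 3 in WT skin after UVB, with a median log2 fold change of 0.35 and 0.20. They were Cast, the calpain inhibitor calpastatin (0.35 ± 0.08 in KO, adjusted p = 0.00522; 0.32 ± 0.08 in WT, adjusted p = 0.0157), Spint1, an inhibitor of matriptase (0.48 ± 0.18 in KO, adjusted p = 0.0479; 0.64 ± 0.18 in WT, adjusted p = 0.0209), Spink5, an inhibitor of epidermal kallikreins (0.51 ± 0.18 in KO, adjusted p = 0.0435; 0.57 ± 0.18 in WT, adjusted p = 0.0422), and, in KO skin alone, Cst6, cystatin M/E (0.47 ± 0.16, adjusted p = 0.0309), whose difference between genotypes did not pass the test. For Spint1 and Spink5, UVB and control libraries of KO skin overlapped.

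The genes whose profile over the 16 libraries was most like each member were found by the root mean square difference of log2 CPM, each gene centred on its own mean, among 13023 genes. Asprv1 and Blmh were each other's nearest gene, at 0.13, against their own spread of 0.98 and 0.97 on the same scale. Trex2 (0.15) and Ggct (0.15) came next for Asprv1, and Sdcbp2 (0.16) and Gsto1 (0.16) for Blmh. Nearest to Casp14 were Calm4 (0.20), Hrnr (0.26) and Lce1h (0.27), and nearest to Tgm1 were Lypd5 (0.11), Alox12b (0.14), a lipoxygenase of the epidermal barrier, and Epn3 (0.15). Nearest to Tgm3 were Mgst2 (0.43), Lce1j (0.47) and Gsg1l (0.49), against its own spread of 1.29. Tgm5 was nearest to Ugt1a1 (0.16), Atp6v0a4 (0.18) and Cds1 (0.19), and Tgm2, whose own spread was 0.14, to Synpo (0.08), Tmem38b (0.09) and the endothelial gene Esam (0.09). The distances are not divided by the spread, so the small ones for Tgm2 do not mean a closer match than those for Tgm3. For members that shifted with UVB, the measure takes in the shift shared with their nearest genes. Tgm2 had no called shift, and the group means of its nearest gene Synpo also lay close, from 62.5 CPM in KO UVB to 69.4 CPM in KO control libraries. The measure is a description with no test.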

How the data were processed

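Poly(A)-enriched directional libraries (NEBNext Ultra II) were made from Trizol-extracted RNA, per the labels' protocols, and aligned to GRCm39 with STAR, per the submitters' processing notes. No source here names STAR's version or the annotation release. The deposited values are raw read counts per gene in columns without header. The reverse-strand count was used, since 95.7% of stranded reads lay there; 0.633 to 1.00% of the members' reads lay on the opposite strand. Tgm1 and Tgm2 share exon bases with opposite-strand genes. Summary lines for unmapped (10.7 to 19.5%), no-feature (7.25 to 10.2%) and ambiguous reads (1.18 to 1.42%) stayed out of library sizes and tests. The line for multimapping reads was 0% in every library, so the counts do not show how such reads were handled. A combined table has 17 value columns that no header assigns to samples, and it was not used.

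Symbols were matched by Ensembl ID (52083 of 55359 IDs). Counts of all 4 groups entered 1 edgeR 4.0.16 fit (TMM, filterByExpr, robust quasi-likelihood) in R 4.3.3, with Benjamini-Hochberg adjustment over all genes of a contrast. The script was tested on simulated data. Log2 CPM have a prior count of 2, and standard errors are those the test implies. The members and lists were chosen with earlier results of these data known. Named by rule are all members, Tnfrsf1a and Tnfrsf1b, the 4 called genes with the smallest p per list and comparison, Flg, and the 3 genes most like each member with a mean count of at least 50. Outside this rule, Flg2, F13a1, Tgm4, Epb42 and some of the cell type markers are named. DESeq2 1.42.0, limma 3.58.1 and the other alternatives are in the closing section. Chi-square per degree of freedom in the 24 pairs of libraries within groups was 14.9 to 158, so none agreed within sampling noise.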

Additional observations from a re-analysis of the deposited data

Results flagged for a closer look

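Tgm2 stood at 256 CPM in KO control library 1, far from the other 3 libraries of its group, which lay between 194 and 203 CPM. It was the only flag for a sample far from its group among the 28 combinations of gene and group looked at, where chance flags about 1 in 20. Without that library the Tgm2 difference between KO and WT control skin was -0.03 on the log2 scale, against 0.07 with it, and neither value passed the test.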

How the results depend on the processing

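Of the 11 UVB effects called among the 7 genes, 10 were called in all 26 alternatives, and Tgm5 in WT skin in 19 of 26; none of the 11 moved by over 1.5 times. The number of members called after UVB was 5 in KO skin in every alternative and 5 or 6 in WT skin. KO against WT without UVB called 1 member (Tgm3) with DESeq2, with the groups of the contrast alone and, added after seeing the data, without WT UVB library 2 and KO UVB library 4 together, and 0 to 1 with single libraries left out; the cause was not tested.

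Signs turned 39 times, only in effects that were not called, with an adjusted p of at least 0.56. In the interaction these were Blmh at 0.0036 (DESeq2, and DESeq2 size factors), 0.017 (library totals), 0.0058 (no filter), 0.15 (those 2 libraries out) and -0.22 to 0.14 (single libraries out), Tgm2 at 0.0053 (voom), 0.0095 (library totals), 0.0018 (unstranded) and -0.079 to 0.087 (single libraries out), and Asprv1 at -0.33 to 0.033. In KO against WT with UVB they were Tgm3 at -0.052 (voom) and -0.28 to 0.34, Tgm5 at 0.044 (those 2 libraries out), Tgm1 at -0.10 to 0.22, Tgm2 at -0.0068 to 0.11, Casp14 at -0.18 to 0.38, Asprv1 at -0.16 to 0.20 and Blmh at -0.16 to 0.19, the last ranges with single libraries out. Without UVB they were Tgm2 at -0.028 to 0.12 and Blmh at -0.0085 (library totals) and -0.042 to 0.15. Without KO UVB library 1, Tgm1, Tgm3, Casp14, Asprv1 and Blmh all turned negative in KO against WT with UVB.

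Calls over all genes ranged over the alternatives from 3506 to 6350 (5666 as reported) for UVB in KO, 2039 to 4363 (3290) for UVB in WT, 59 to 658 (150) for KO against WT with UVB, 93 to 452 (297) without UVB and 2 to 212 (4) for the interaction. Same-numbered libraries correlated at -0.40 to 0.22 in their deviations, over 0.1 in 3 of 24 pairs, so the numbers were not taken as pairs; with the replicate number as a block the members called were 5, 6, 0, 0 and 0, and the calls over all genes 5169, 2696, 77, 240 and 7, in the same order of comparisons.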
